A study of Mus musculus with 6 samples.

Results

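The genes described here are 8 immunoglobulin and B cell receptor genes: the antibody constant region genes Ighm, Ighd and Igkc, the joining chain gene Jchain, and the receptor and signalling genes Cd79a, Cd79b, Cd22 and Blnk. They were chosen by name, with their counts in these libraries already known, to set an abundant antibody gene of thymocytes beside genes of B cells and plasma cells. All 8 were found among the 16448 rows of the authors' table of normalised counts, and the full count table has 43430 genes. Because measured levels led to the choice, the levels below are a description, and the p-values of these genes describe the fit and are not independent support.

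RNA was sequenced from CD4+CD8+ (double-positive) thymocytes, an intermediate stage of T cell development, sorted from the thymus of C57BL/6 mice to a stated purity over 98%. The KO group (3 libraries) carried Mettl14fl/fl and CD4-Cre+, and the WT group (3 libraries) came from littermate controls. Mettl14 encodes a subunit of the enzyme that writes N6-methyladenosine on RNA, and the study's title asks about its part in iNKT cells, a T cell lineage that arises from double-positive thymocytes. CD4-Cre is driven by regulatory sequence of Cd4 and acts late in thymocyte development, so cells that never expressed Cd4 are not its intended target. Which floxed or Cre alleles the controls carried, and the age of the mice, were not given in the sources used here. Nor do those sources state that libraries stand for separate mice. The tests below therefore compare libraries, and their spread can be technical in part.

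A B cell receptor is an antibody bound to the membrane, made of heavy chains (Ighm for IgM, Ighd for IgD) and light chains (Igkc for kappa), and it signals through the CD79A and CD79B chains. Cd22 encodes an inhibitory coreceptor and Blnk an adaptor that links the receptor to downstream enzymes, whereas Jchain encodes the protein that joins secreted IgM and IgA into polymers and is abundant in plasma cells. T lineage cells do not make antibody, but the heavy chain locus is open in them: germline RNA of Ighm and joins of D to J segments are known in thymocytes. A gene's RNA alone therefore does not identify a B cell, and in bulk RNA fewer cells of a type cannot be told apart from less RNA per cell.

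Ighm lies on the minus strand of chromosome 12 (113418558 to 113422730 on mm10), downstream of 4 heavy chain J segments, which a V(D)J join would place at the end of the variable region. Their germline sequences (GENCODE M21 positions, GRCm38, minus strand, 5′ to 3′) are shown because J, V and constant region counts are set side by side below. Capitals mark TGGGG, which spans the codons of the tryptophan and glycine that J segments share. From the first to the fourth they are at chr12:113429781-113429833, chr12:113429468-113429515, chr12:113429085-113429132 and chr12:113428514-113428567.
Ighj1: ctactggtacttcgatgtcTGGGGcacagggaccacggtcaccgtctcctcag
Ighj2: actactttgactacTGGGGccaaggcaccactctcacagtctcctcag
Ighj3: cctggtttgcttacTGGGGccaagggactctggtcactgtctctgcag
Ighj4: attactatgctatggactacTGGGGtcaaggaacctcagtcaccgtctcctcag

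Promoter sequences were at hand for 4 of the 8 genes (RefSeq, GRCm38.p6; Cd79a, Cd22, Blnk and Jchain), and those of the 3 B cell receptor genes are shown because Cd79a and Cd22 share the same highest library below. Each run is the 250 bases before RefSeq's gene start, read on the gene's strand: chr7:24897247-24897496 (plus strand) for Cd79a, chr7:30879029-30879278 (minus strand) for Cd22 and chr19:40994222-40994471 (minus strand) for Blnk. RefSeq's starts differ from those of the count table, by which the Cd22 and Blnk windows lie inside the gene models and the Cd79a window overlaps the gene's first bases. Capitals mark matches to 4 short motifs searched on both strands: the octamer ATTTGCAT, the EBF1 core CCCNNGGG, the ETS core AGGAAG and the E-box CAGCTG.
Cd79a promoter: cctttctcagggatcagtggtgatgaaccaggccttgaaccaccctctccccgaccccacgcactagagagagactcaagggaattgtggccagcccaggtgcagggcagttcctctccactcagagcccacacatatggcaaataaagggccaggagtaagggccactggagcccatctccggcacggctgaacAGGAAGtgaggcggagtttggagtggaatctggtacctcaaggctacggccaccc
Cd22 promoter: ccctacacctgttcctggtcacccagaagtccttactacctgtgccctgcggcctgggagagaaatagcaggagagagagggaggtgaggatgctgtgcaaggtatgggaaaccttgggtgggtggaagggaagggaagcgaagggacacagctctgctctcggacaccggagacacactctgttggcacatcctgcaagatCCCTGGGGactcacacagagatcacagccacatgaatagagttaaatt
Blnk promoter: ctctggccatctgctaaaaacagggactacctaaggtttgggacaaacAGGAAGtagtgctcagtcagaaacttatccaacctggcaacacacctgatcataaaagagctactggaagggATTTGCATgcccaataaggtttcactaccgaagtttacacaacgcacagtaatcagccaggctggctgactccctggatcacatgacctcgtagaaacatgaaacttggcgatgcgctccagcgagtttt
The Cd79a window held an ETS core that begins 55 bases before the start, and the Cd22 window an EBF1 core 48 bases before it. The Blnk window held an octamer at 130 bases and an ETS core at 202 bases, and the Jchain window held none of the 4. No 2 of these matches overlapped. Among all 32851 windows of the same length, 1.6% held the octamer, 11.8% the EBF1 core, 29.5% the ETS core and 13.0% the E-box. A match is a description of letters and not a bound site.

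Counts assigned to genes ran from 29500254 to 33377056 per library, so that 1 count corresponded to between 0.0293 and 0.0342 CPM (counts per 1000000 counts in genes, scaled by the trimmed mean of M-values, TMM). The labelled cell type was matched by its markers: Cd4 stood at 306 ± 25.1 CPM per kilobase of gene model (SD, n = 6 libraries), Cd8a at 490 ± 24.7 and Cd3e at 379 ± 29.8. The targeted gene Mettl14 averaged 55.6 ± 3.37 CPM in the WT and 39.6 ± 2.97 CPM in the KO libraries (SD, n = 3 each). Every KO library was below every WT library (edgeR adjusted p = 0.289). Over all 13039 genes tested by edgeR, 5 were called at an adjusted p under 0.05, or 0.0383%.

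Ighm was among the most abundant RNAs of these cells and was nearly level across libraries. It had 26334, 27349 and 24147 counts in WT replicates 1, 2 and 3, and 24853, 22748 and 24933 counts in KO replicates 1, 2 and 3. The groups overlapped fully, and no library stood apart. Ighm ranked 100 among all 43430 genes by mean CPM and took 0.0765% to 0.0837% of the counts of each library. In CPM it averaged 808 ± 32.3 in the WT and 789 ± 30.3 in the KO libraries (SD, n = 3 each). The edgeR fit gave KO minus WT as -0.03 on the log2 scale (SE 0.065, adjusted p = 0.935), with a 95% interval from 0.880-fold to 1.08-fold. The highest library was 1.07-fold above the lowest, and 96.1% of the 358 tested genes within 2-fold of its level had a wider span (median 1.20-fold).

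Scaled for length, the 8 genes covered a wide range of levels, with Ighm far above the other 7. Ighm was at 250 ± 9.34 CPM per kilobase (SD, n = 6 libraries), below Cd4 in every library and below Cd8a and Cd8b1 (490 and 1392 CPM per kilobase). Igkc followed at 34.1 ± 43.3 CPM per kilobase, then Cd79b at 7.57 ± 1.21, Ighd at 1.65 ± 0.452 and Jchain at 1.23 ± 1.48. Cd79a was at 0.534 ± 0.441 CPM per kilobase, Blnk at 0.140 ± 0.0687 and Cd22 at 0.0282 ± 0.0376. In this order, Ighm and Igkc did not overlap between libraries, nor did Cd79b and Ighd, while every other pair of neighbours overlapped. Per kilobase, Ighm exceeded Cd79a 1002-fold, 832-fold and 1225-fold in WT replicates 1 to 3 and 630-fold, 176-fold and 367-fold in KO replicates 1 to 3. On the log2 scale this ratio was 9.98 ± 0.28 in WT and 8.43 ± 0.92 in KO (SD, n = 3 each), a difference of -1.55 (two-sided exact permutation p = 0.1, the smallest that 3 against 3 allows). The ratio moved with Cd79a, since Ighm was level. The groups of Cd79a did not overlap, so this p was fixed by Cd79a and is not separate support.

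**Figure D1:**
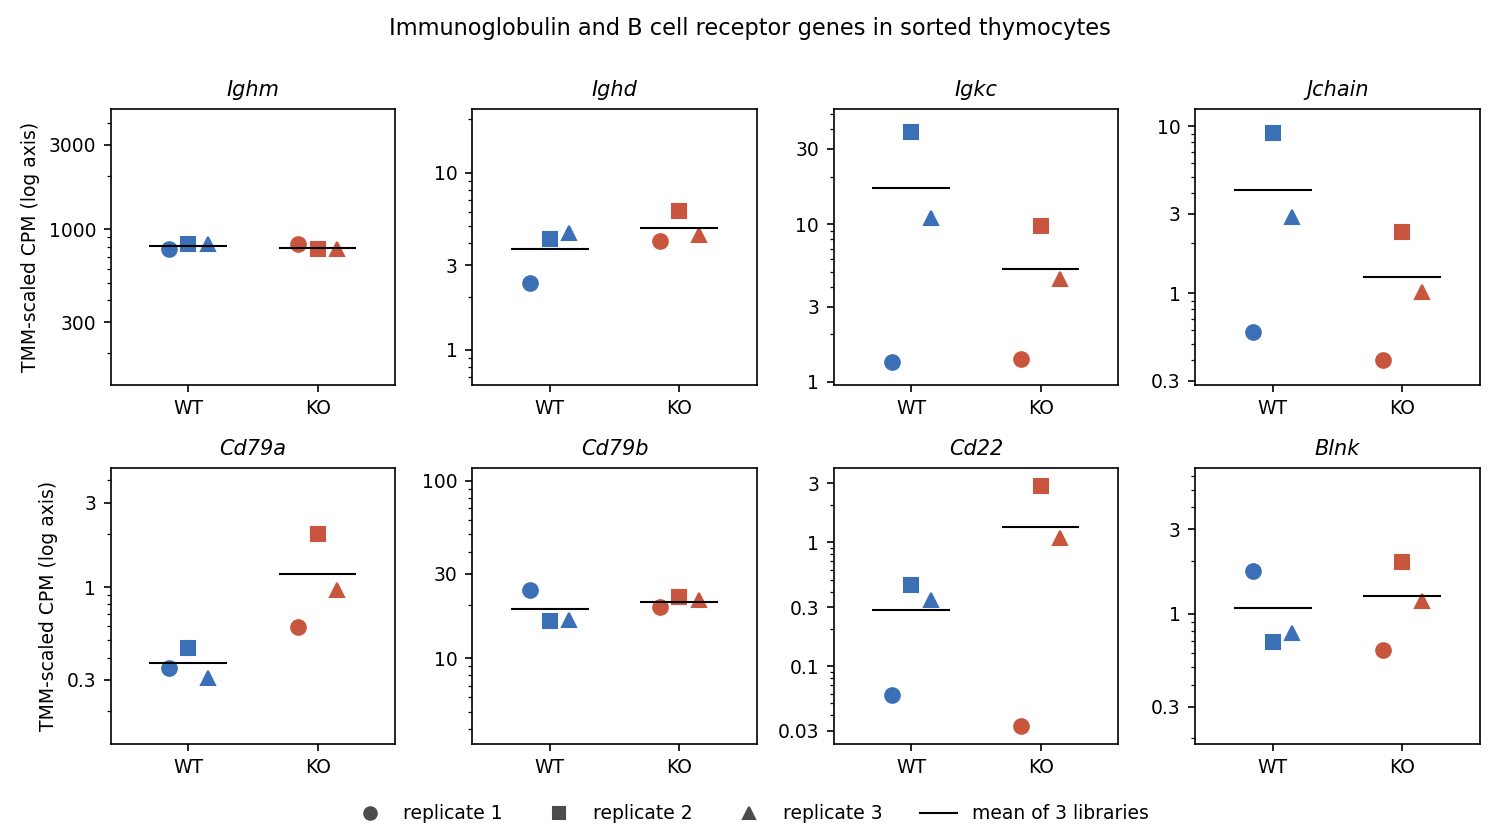
TMM-scaled CPM (log axis) of the 8 genes in the 3 WT and 3 KO libraries, with a symbol for each replicate and a line at the group mean. Ighm spans 771 to 828 CPM, Igkc and Jchain are highest in WT replicate 2, and Cd79a and Cd22 are highest in KO replicate 2.

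The heavy chain gene next to Ighm, Ighd (chromosome 12, 113406604 to 113416324), is normally made with Ighm from a single long transcript in mature B cells. It had 82, 140 and 133 counts in the WT libraries and 125, 180 and 143 in the KO libraries, in replicate order. WT replicate 1 was lowest, KO replicate 2 highest, and the groups overlapped. Means were 3.73 ± 1.16 CPM in the WT and 4.89 ± 1.05 CPM in the KO libraries (SD, n = 3 each), and edgeR put the log2 difference at 0.39 (SE 0.28, adjusted p = 0.805). Without WT replicate 1 it was 0.16. Per 1000 Ighm counts there were 3.11 to 7.91 Ighd counts, a comparison of libraries only, since counts are not scaled for length.

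Igkc and Jchain, the genes most used by antibody-secreting cells, were highest in WT replicate 2 and spread widely within both genotypes. Igkc (chromosome 6, 70726435 to 70726757), the kappa constant region, had 46, 1268 and 319 counts in WT and 42, 285 and 145 in KO. WT replicate 2 was far above the rest, replicate 1 was lowest in both genotypes, and the groups overlapped. The WT libraries averaged 16.9 ± 19.2 CPM and the KO libraries 5.18 ± 4.17 CPM (SD, n = 3 each). The log2 difference of -1.71 had an SE of 1.04 (edgeR adjusted p = 0.78) and was -0.23 without WT replicate 2. Jchain (chromosome 5, 88520512 to 88527891) had 20, 300 and 84 counts in WT and 12, 69 and 33 in KO. Again WT replicate 2 was highest, both replicates 1 were lowest, and the groups overlapped. The log2 difference, -1.74 with an SE of 0.92 (edgeR adjusted p = 0.767), was -0.45 without WT replicate 2. The highest library exceeded the lowest 28.5-fold for Igkc and 22.8-fold for Jchain, while the count of Igkc per Jchain count stayed between 2.30 and 4.39.

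Cd79a and Cd22, which B cells express, were highest in another library, KO replicate 2. Cd79a (chromosome 7, 24897381 to 24902197), a signalling chain of the receptor, had 12, 15 and 9 counts in WT and 18, 59 and 31 in KO. Every KO library lay above every WT library, and KO replicate 2 stood highest. The WT libraries averaged 0.371 ± 0.0753 CPM and the KO libraries 1.19 ± 0.727 CPM (SD, n = 3 each). The log2 difference was 1.66, with an SE of 0.49 and a 95% interval of 0.52 to 2.79. It missed the threshold after adjustment over the genes tested (edgeR adjusted p = 0.63, unadjusted p = 0.00999), and was 1.07 without KO replicate 2. Cd22 (chromosome 7, 30865402 to 30880342) had 2, 15 and 10 counts in WT and 1, 84 and 35 in KO. KO replicates 2 and 3 exceeded all WT libraries while KO replicate 1 was the lowest of all, so the groups overlapped. The ratio of the highest to the lowest library was 85.8, with an exact 95% counting interval of 15.0 to 3429 because the lowest had 1 count. For Cd22 edgeR gave a log2 difference of 2.21 with an SE of 1.10 (adjusted p = 0.762), which was 0.996 without KO replicate 2.

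Cd79b and Blnk differed less between libraries than Cd79a and Cd22. Cd79b (chromosome 11, 106311341 to 106314762), the partner of Cd79a in the receptor, had 825, 534 and 479 counts in WT and 584, 650 and 683 in KO. WT replicate 1 was highest, the other WT libraries were lowest, and the KO libraries lay between. Cd79b averaged 18.9 ± 4.55 CPM in the WT and 20.9 ± 1.35 CPM in the KO libraries (SD, n = 3 each). The log2 difference of 0.14 had an SE of 0.17 (edgeR adjusted p = 0.882), and was 0.36 without WT replicate 1 and 0.041 without WT replicate 2. Per kilobase its level was above that of Cd79a in every library. Blnk (chromosome 19, 40928927 to 40994535) had 60, 23 and 23 counts in WT and 19, 58 and 38 in KO. KO replicate 2 was highest in CPM, as for Cd22, followed by WT replicate 1, and the groups overlapped. Blnk differed by 0.21 on the log2 scale (SE 0.50, edgeR adjusted p = 0.949), which was -0.02 without WT replicate 2 and -0.25 without KO replicate 2.

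All 8 genes passed the filter on low counts, and edgeR called 0 of them, beside 0.0383% of all genes tested. DESeq2 also called 0 of the 8, beside 0.733% of the 15010 genes to which it gave an adjusted p. The authors' deposited table gives an adjusted p under 0.05 to 0 of the 8, beside 0.762% of the 15491 genes that have one there. At an unadjusted p under 0.05, the edgeR fit on genotype alone gave 1 of the 8, Cd79a, beside 6.72% of all genes. Cd79a was also the gene whose groups did not overlap, beside 6.59% of tested genes with every KO library above every WT library. For 0 of the 8 did every KO library lie below every WT library, beside 5.97% of tested genes. The log2 fold change was above 0 for 5 of the 8 genes and below 0 for 3, beside 48.9% of all tested genes above 0, with a median of 0.18 against -0.0040 for all genes. The authors' deposited table gives log2 fold changes of -0.027 for Ighm, 1.68 for Cd79a, 2.22 for Cd22, -1.66 for Igkc and -1.71 for Jchain.

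**Figure D2:**
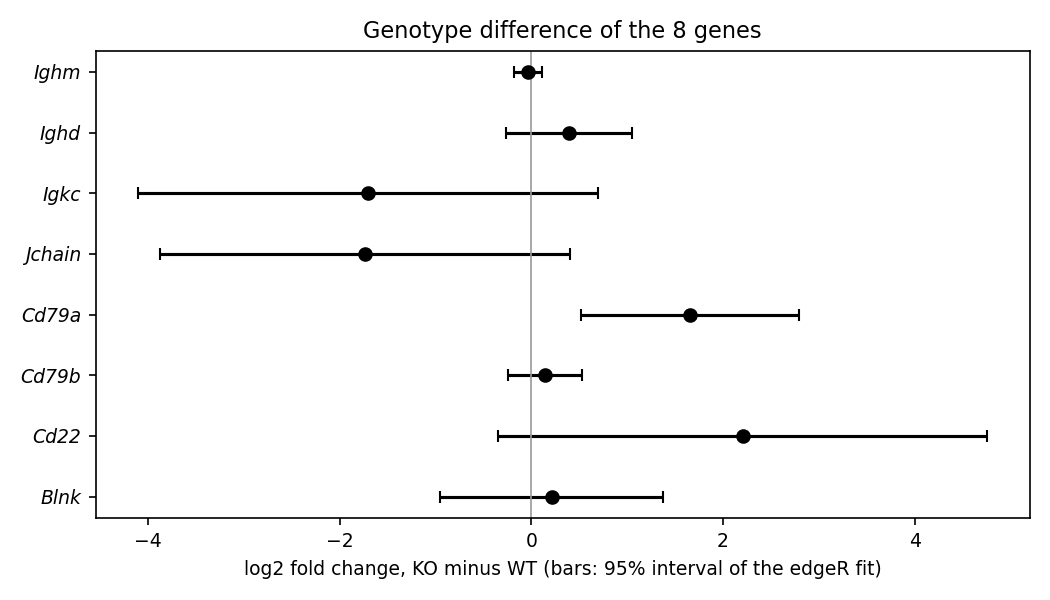
Log2 fold change of each gene, KO minus WT, from the edgeR fit over all genes, with bars for its 95% interval (n = 3 libraries a group). The interval of Ighm is the narrowest, and that of Cd79a, from 0.52 to 2.79, is the one that does not reach 0.

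To place Cd79a and Cd22 among the B cell genes, a list of 20 B cell markers was read beside them. The list includes Cd79a, Cd79b, Cd22 and Blnk themselves. Of the 20, 10 passed the filter, 0 were called, 8 had a log2 fold change above 0, and the median was 0.28, beside -0.0040 for all genes. Without those 4 genes, 6 were tested, 4 of them above 0, with a median of 0.23. With no filter on low counts the median over all 20 was 1.50. Markers divided by abundance: 15 had a mean under 1 CPM, and 5 (Ly6d, Cd79b, Pou2af1, Cd72 and Blnk) had more. Together the 15 low markers had 106, 134 and 118 counts in WT and 89, 588 and 301 in KO, so KO replicates 2 and 3 were high and KO replicate 1 was the lowest of all. Without Cd79a and Cd22, the other 13 had 92, 104 and 99 counts in WT and 70, 445 and 235 in KO. In CPM, 12 of the 13 were highest in KO replicate 2, Tnfrsf13c being the exception. Some were near ties at few counts: Ebf1 had 11 in KO replicate 2 and 12 in KO replicate 3. Fcrla had 15 in both WT replicate 2 and KO replicate 2. Ly6d, which thymocytes also express, had 6524 to 10164 counts in WT and 6534 to 10969 in KO, and its groups overlapped.

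Defining B cell genes, named after their values were seen, were at or near 0 in several libraries. Ms4a1, which encodes CD20, had 9, 8 and 5 counts in WT and 3, 62 and 36 in KO. Pax5, the transcription factor that maintains B cell identity, had 0, 1 and 0 counts in WT and 0, 9 and 5 in KO. Both were highest in KO replicate 2, as Cd79a and Cd22 were. Ighm had 771 CPM in that library, as in WT replicate 1, and 773 CPM in KO replicate 3. Of the 20 markers, 4, 2 and 1 had no count in WT replicates 1 to 3 and 3, 0 and 0 in KO replicates 1 to 3.

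Markers of other cell types were read beside the B cell genes. Of 10 myeloid and dendritic cell markers, 7 passed the filter and 0 were called. All 7 had a log2 fold change above 0 (median 1.34). The summed level of all 10 was 70.1 to 75.0 CPM in WT and 79.1 to 102 CPM in KO. Most of it was Cst3, with 51.0 to 55.6 CPM in WT and 55.9 to 60.1 CPM in KO. Itgax was the one at 0, in KO replicate 1. Cd74, the invariant chain of MHC class II, which B cells express too, had 92, 170 and 103 counts in WT and 73, 552 and 340 in KO, again highest in KO replicate 2. In all, 4 of the 10 were highest in KO replicate 2 (Cd74, H2-Aa, H2-Eb1 and Itgax), the first 3 of them genes of MHC class II presentation, which B cells share. Another MHC class II gene, H2-Ab1, did not share this peak, with 158, 182 and 155 counts in WT and 200, 198 and 262 in KO. It was highest in KO replicate 3, and every KO library lay above every WT library (edgeR adjusted p = 0.695). Lyz2, the lysozyme of myeloid cells, was also highest in KO replicate 3, with 10, 24 and 31 counts in WT and 15, 27 and 138 in KO. Of 10 plasmacytoid dendritic cell markers 7 were tested, 5 of them above 0, with a median of 0.17. Summed over all 10, they had 1086 to 1194 CPM in WT and 1022 to 1285 CPM in KO. Most of this sum was 1 gene, Ccr9, with 1012 to 1124 CPM in WT and 940 to 1197 CPM in KO. Siglech had 0.176 to 0.239 CPM in WT and 0.0332 to 0.434 CPM in KO. Klk1 was at 0 in KO replicate 1 and Cox6a2 at 0 in KO replicate 2. The share of such cells in the differences of Cd79a and Cd22 was not tested.

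**Figure D3:**
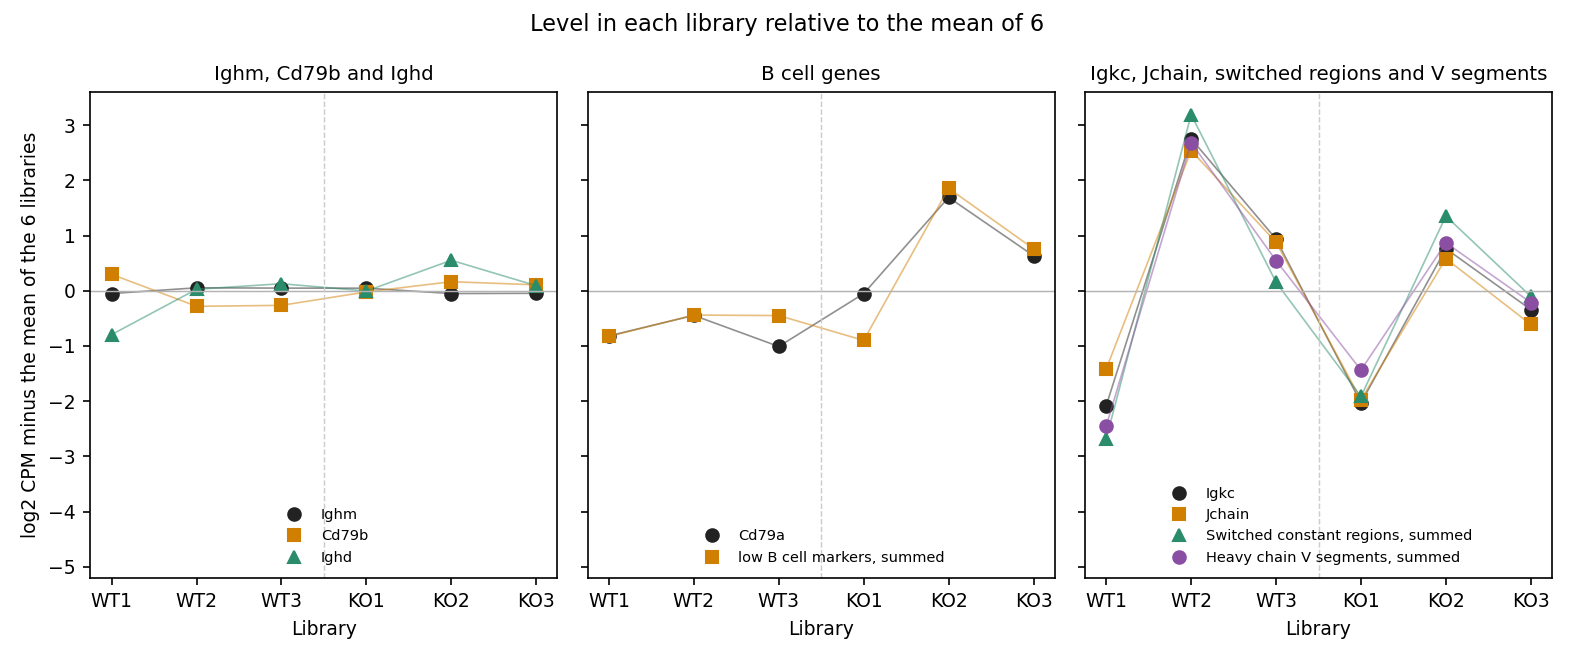
Log2 CPM of genes and summed gene groups in each library, less the mean of the 6 libraries, with lines joining points of a gene for reading only. Ighm stays between -0.051 and 0.053, Cd79a and the 15 low B cell markers (Cd79a among them) are highest in KO replicate 2 (1.69 and 1.86), and Igkc, Jchain, switched constant regions and heavy chain V segments are highest in WT replicate 2 (2.54 to 3.19).

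The sum of constant regions used after class switching was, like Igkc and Jchain, highest in WT replicate 2 and lowest in both replicates 1. Summed over 6 genes, they had 36, 2036 and 220 counts in WT and 54, 509 and 203 in KO, a 58.5-fold span in CPM. The groups overlapped, and the spread within each genotype was wide. Ighg2b had 10, 860 and 64 counts in WT and 1, 90 and 31 in KO. Igha, the constant region of IgA, had 23, 439 and 103 counts in WT and 48, 128 and 98 in KO. Of the 6, 4 were highest in WT replicate 2. Ighg1 was highest in KO replicate 2, with 0, 42 and 3 counts in WT and 0, 70 and 44 in KO. Ighe was highest in WT replicate 3, with 0, 0 and 17 counts in WT and 1, 6 and 0 in KO. Ighg3, not tested, had 3, 38 and 10 counts in WT and 0, 1 and 0 in KO, with every KO library below every WT library. Of 12 constant regions on the list 10 were matched and 7 tested, 0 were called, and 2 were above 0 and 5 below (median -0.96, beside -0.0040 for all genes). That list includes Ighm, Ighd and Igkc, and without them 1 was above 0 and 3 below. Per 1000 Ighm counts there were between 1.37 and 74.4 counts of switched constant regions and between 1.69 and 46.4 of Igkc. These too compare libraries only, since counts are not scaled for length.

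**Figure D4:**
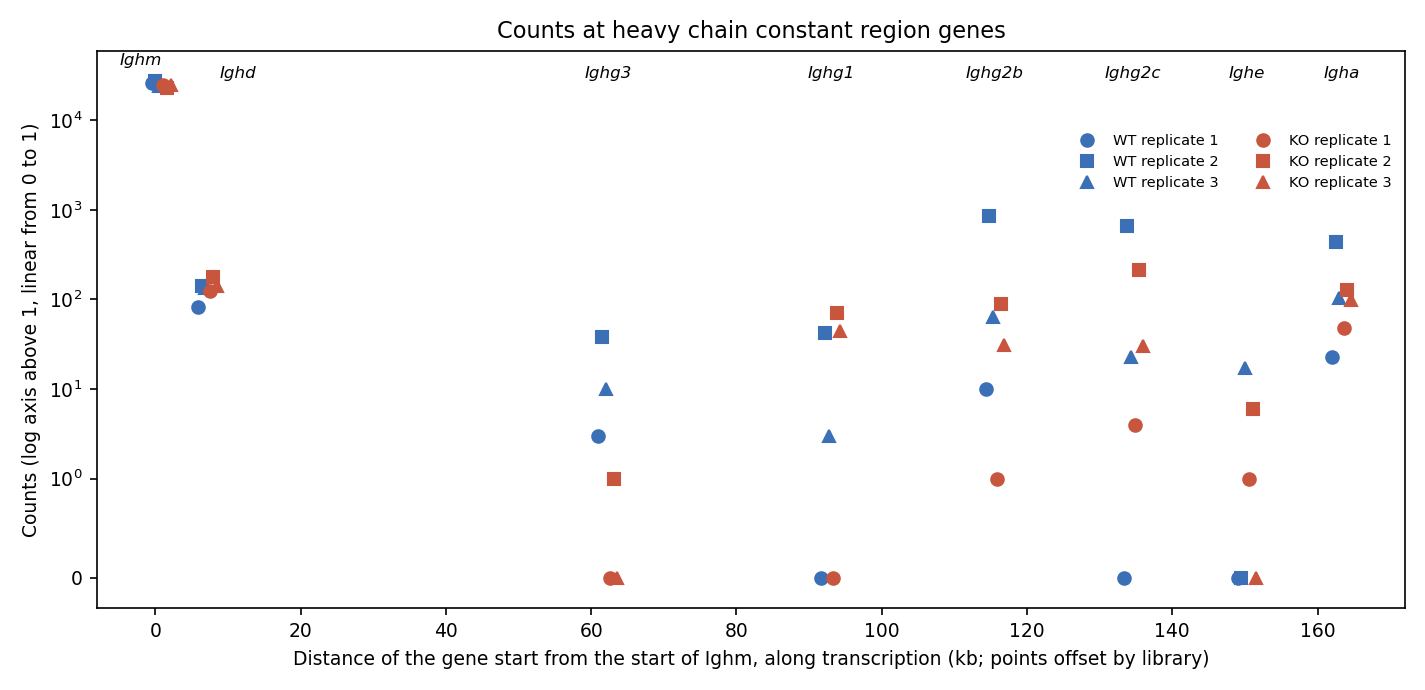
Counts at the heavy chain constant region genes in each library (log axis above 1, linear from 0 to 1), placed by distance in kilobases from the start of Ighm along the direction of transcription. Ighm has 22748 to 27349 counts in each library, whereas switched genes run from 0 to 860 and are spread between libraries of the same genotype.

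V segments, which a functional antibody RNA must carry, had few counts beside Ighm. The count table has 175 heavy chain V segments, of which 75 had any count, with sums of 18, 610 and 123 in WT and 32, 155 and 80 in KO. WT replicate 2 was again highest and both replicates 1 lowest. Kappa V segments (64 of 103 with a count) summed to 21, 860 and 187 in WT and 39, 181 and 103 in KO. Per 1000 Ighm counts there were 0.684 to 22.3 counts of heavy chain V segments. This compares libraries only, since counts are not scaled for length: the Ighm model has 3191 bases and that of Ighv1-53, for example, 351. V segments resemble each other, and reads with several alignments were left out of the gene counts (22.6% to 23.9% per library), so these sums can be too low.

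The 4 heavy chain J segments had few counts and did not share that pattern. Ighj2 was counted over a longer model, from 113429468 to 113429567, than the segment printed above. They summed to 20, 23 and 21 counts in WT and 28, 7 and 14 in KO. KO replicate 2 was lowest and KO replicate 1 highest, and the groups overlapped. Of 20 heavy chain D segments, 1 had a count, which was 1. Upstream of Ighm, 1915 and 2019 bases beyond the end of its gene model, the listed miRNA genes Gm25747 and Gm24022 had 19 to 34 and 52 to 85 counts. Downstream, the pseudogene Gm9134 had 0 to 6 counts, and Gm9136 and Gm5190 had 0 in every library.

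Genes of antibody secretion and of pre-B cells were read beside Jchain and Ighm. Of 10 plasma cell markers 9 were tested and 0 called, with 4 above 0 and 5 below. That list includes Jchain, and of the other 8 tested genes 4 were above 0 and 4 below. Summed over all 10, they had 239 to 276 CPM in WT and 234 to 277 CPM in KO. Most of this sum was Xbp1 and Tnfrsf13b (53.4 to 82.6 CPM in WT, 59.3 to 69.0 CPM in KO), so it does not show the spread of Jchain. Tnfrsf17, a receptor of plasma cells, was at 0 in WT replicate 1 and KO replicate 2. Xbp1, a transcription factor of the unfolded protein response, averaged 171 ± 14.8 CPM in the WT and 178 ± 16.8 CPM in the KO libraries (SD, n = 3 each). Sdc1, the surface proteoglycan syndecan-1, had 40, 88 and 71 counts in WT and 10, 12 and 13 in KO, so that every KO library lay below every WT library. Its log2 difference of -2.44 had an SE of 0.39 (edgeR adjusted p = 0.28). Within the WT group Sdc1 did not follow Jchain: replicate 1 had 40 Sdc1 and 20 Jchain counts, replicate 2 had 88 and 300.

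Of 8 genes of the surrogate light chain and of pre-B cells, 5 were tested, all 5 with a log2 fold change above 0 and 0 called (median 0.075). Vpreb1, a part of the surrogate light chain, had 36, 51 and 52 counts in WT and 83, 78 and 57 in KO. Its log2 difference of 0.71 had an SE of 0.29 (edgeR adjusted p = 0.733, unadjusted p = 0.0416). Igll1, its partner, had 1 to 6 counts in WT and 6 to 9 in KO. Rag1, which thymocytes share with pre-B cells, averaged 4835 ± 239 CPM in the WT and 5092 ± 234 CPM in the KO libraries (SD, n = 3 each).

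Enzymes and adaptors of receptor signalling were read from a list of 25 genes, which includes Cd79a, Cd79b, Cd22 and Blnk. Of the 25, 22 were tested and 0 called, 16 with a log2 fold change above 0, with a median of 0.13 (0.051 over the 18 tested genes other than those 4). Syk, the kinase recruited by CD79A and CD79B, averaged 73.6 ± 2.28 CPM in the WT and 71.6 ± 4.84 CPM in the KO libraries (SD, n = 3 each). Btk, the kinase that acts with BLNK, had 8 to 17 counts in WT and 3 to 23 in KO. Lyn, a kinase that phosphorylates the receptor chains, had 38, 20 and 35 counts in WT and 36, 55 and 77 in KO, with overlapping groups (edgeR adjusted p = 0.733, unadjusted p = 0.0400).

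The genes nearest to Ighm and Cd79a in their pattern over the 6 libraries were taken by the root mean square difference of centred log2 CPM. Candidates were tested genes whose mean log2 CPM was within 3 of that gene's. For Ighm, among 2752 candidates, these were Flii, Copg1, Eif3i, Sh3glb2 and Exosc10, at differences of 0.0186 to 0.0213. Ighm itself lay only 0.0492 from its own mean by this measure, so any level gene is near it. For Cd79a, among 3580 candidates, they were Chst3, Gm1966, Ly86, Btg3 and Ifit3, at 0.304 to 0.354. Chst3 had 0.263, 0.303 and 0.342 CPM in WT and 0.298, 1.29 and 0.744 CPM in KO. It was chosen for its likeness to Cd79a over these libraries, so its peak in KO replicate 2 follows from the choice.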

How the data were processed

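RNA was measured in 6 libraries, 3 KO and 3 WT, grouped by genotype label; the labels give no batch. The submitters' processing notes name Trimmomatic 0.33, STAR 2.5.2, HTSeq and DESeq2, and the build mm10. Counting mode, strand setting and annotation release were not given in the sources used here, so reads of overlapping or antisense genes cannot be told apart. The authors deposited raw counts per gene, and a normalised signal (counts divided by 1 size factor per library). They also deposited a DESeq2 table with log2 fold changes, test scores and p-values, per the file headers, in a file named as paired. Positions and lengths are those of the count table, per the file headers, and 78.9% of its genes had the same position in GENCODE M21. Gene names were matched for 42464 of 43430 identifiers.

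Rows naming no gene were left out of totals and of testing. Unassigned reads (no feature) were 12.3% to 15.2% per library, ambiguous reads 0.653% to 0.701% and reads with several alignments 22.6% to 23.9%. Raw counts were tested with edgeR 4.0.16 in R 4.3.3 (TMM, filterByExpr, two-sided quasi-likelihood test on genotype, Benjamini-Hochberg adjustment over 13039 genes, threshold 0.05). The standard error is the fold change divided by the root of F. Levels are TMM-scaled CPM. Alternatives were DESeq2 1.42.0, upper-quartile scaling, no filter, blocks, and leaving out each library. Intervals of ratios cover counting error only. Simulated counts were used to check the fit: edgeR recovered 60.6% of genes changed 2-fold between KO and WT, and DESeq2 65.7%. Of their calls in the simulation, 10 of 132 were false for edgeR and 33 of 167 for DESeq2. Recovery was taken over genes of all levels and not for genes with few counts alone.

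The 8 genes and all lists were chosen with earlier results of these data known. The rule for names took all 8 genes, up to 6 of the most abundant genes per list, the 5 most counted segments of each class, 3 neighbours on each side of Ighm, the 5 genes nearest in pattern to Ighm and Cd79a, and Mettl14. Ms4a1, Pax5, Cd74, Sdc1, Vpreb1, Igll1, Btk, Lyn, Ighg1, Ighg3 and Ighe were named for a marker role or after their values were seen where they fall outside it. Some genes on these lists are not reported here.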

Additional observations from a re-analysis of the deposited data

How the results depend on the processing

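Calls by edgeR over all genes went from 5 to 110 with DESeq2, to 30 with no filter and to between 4 and 23 when 1 library was left out (8 without WT replicate 1, 23 without WT replicate 3, 14 without KO replicate 2). The count of the 8 genes called was 0 under all 11 alternatives, and the lowest adjusted p of any of them was 0.239 (Cd79a, DESeq2). Of 88 alternative fold changes of the 8 genes, 86 kept their direction. The other 2 were those of Blnk, -0.02 without WT replicate 2 and -0.25 without KO replicate 2, in a range up to 0.76 with a library left out. The median of B cell markers, 0.28 over 10 tested genes, was 1.50 over 20 with no filter. It was 0.25 over 10 genes without KO replicate 2 and 0.32 over 11 without KO replicate 3. In the other 4 cases 17 to 19 genes passed (1.07 without WT replicate 1, 1.48 without WT replicate 2, 1.55 without WT replicate 3, 1.76 without KO replicate 1). The filter then needs counts in fewer libraries, and these cases kept KO replicates 2 and 3, where the low markers summed highest. Genes can thus pass through those 2 libraries alone, so the larger medians follow in part from the filter and are not support. The difference in the log2 ratio of Ighm to Cd79a, -1.55, was -0.66 with a pseudocount of 1 CPM and -1.07 to -1.99 with a library left out. It was -0.14 with the sum of all B cell markers in place of Cd79a. That sum, 223 CPM in WT replicate 2 to 378 CPM in KO replicate 3, was mostly Ly6d (198 and 340 CPM there), which thymocytes also express. The value is thus close to a ratio of Ighm to Ly6d. The ratio difference was -1.16 with the sum of the 15 low markers, and the marker median was 0.23 without the 4 markers that are among the 8 genes, both alternatives chosen after seeing the data.

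With the replicate number as a block, 5 genes and 0 of the 8 were called, and the median of B cell markers was 0.30. The ratio difference was -1.55 (exact permutation p = 0.25, the smallest possible), which again only restates Cd79a. In the blocked edgeR fit unadjusted p was 0.00516 for Jchain, 0.00931 for Cd79a, 0.0131 for Cd22 and 0.0189 for Igkc. Their adjusted p ran from 0.657 to 0.766, and their log2 differences were -1.47, 1.55, 1.94 and -1.23 in that order. Ighd, Cd79b, Ighm and Blnk had an unadjusted p of 0.125 to 0.729. The share of all tested genes with low unadjusted p in this blocked fit is not given here. The 8 genes were chosen with their counts known, so these p-values are not support for a genotype difference. Over all tested genes, the correlations of deviations between libraries of the same number were -0.149, 0.0796 and 0.192, so the main fit did not take the numbers as pairs. Some of the genes described here did share an order. Igkc, Jchain and the sums of switched constant regions and heavy chain V segments were lowest in replicate 1 and highest in replicate 2 within both genotypes. A block that sets replicate 3 apart also left 5 calls. For genes with few counts, such as Cd22 and Cd79a, counting error limits what the depth can show.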

Other observations

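By the rule for segments, the heavy chain V segment with most counts was Ighv3-6, with 1, 47 and 8 counts in WT replicates 1, 2 and 3 and 3, 15 and 5 in KO. Ighv1-53 had 0, 28 and 30 counts in WT and 0, 2 and 2 in KO. Among kappa V segments, Igkv4-57 had 0, 90 and 14 counts in WT and 0, 1 and 7 in KO, and Igkv3-2 had 0, 13 and 51 in WT and 0, 0 and 9 in KO. WT replicates 2 and 3 thus had their highest counts in different segments. The lambda V segment Iglv1 had 1, 8 and 18 counts in WT and 0, 9 and 2 in KO. Each of 40 of the 75 counted heavy chain V segments was highest in WT replicate 2.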
